A study of Carica papaya with 12 samples.

Results

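The ripening of red-fleshed ‘RB1’ papaya was described from fruit flesh at the ripe and the unripe stage. The libraries compared were ‘RB1’ ripe replicates 1 and 2 and ‘RB1’ unripe replicates 1 to 3, which are 5 of the 12 RNA-Seq libraries of the series, and ‘RB1’ ripe replicate 3, which the study set aside as an outlier, was given beside them. Each library came from the flesh of a separate commercial fruit, and the labels describe ‘RB1’ as sweet with a floral aroma. Unripe fruits were harvested at stage 1 (mature green) and ripe fruits at stage 3 (partly coloured) of a harvest ripening index. Stage 5 of that index is fully ripe, so ripe here means a fruit short of full ripeness at harvest. The other 6 libraries were ripe and unripe fruit of the yellow-fleshed ‘1B’, labelled bitter and musty, and were used only to see where the change with ripening differed. All fruits came from 1 plantation, were treated with the fungicide Sportak after harvest, kept warm for 1 day and chilled in transport, so both stages carry that handling. Ripe and unripe are single points of different fruits and not a course in the same fruit.

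Papaya is a climacteric fruit, in which a burst of respiration and ethylene goes with softening, a change of colour and the release of volatiles. It keeps little starch at harvest, so that its sweetness rests largely on sucrose brought from the leaves, which sucrose synthase and the invertases cleave in the flesh. Its aroma draws on fatty acids, on terpenoids such as linalool, and on benzyl compounds.

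Total counts ran from 10949263 in ‘RB1’ ripe replicate 2 to 58163894 in unripe replicate 3, where 3 counts are 0.274 and 0.0516 CPM (counts scaled to library size). These limits cover counting error only. The level of a gene is the sum of the counts of all isoforms that Trinity placed under 1 identifier, in CPM. Ripe replicate 3 lay nearer to the unripe fruits, at a Euclidean distance of 113 to 135 from them over the log2 CPM of the tested genes and of 221 and 241 from ripe replicates 1 and 2, which were 123 apart. No gene of the study's list marks fruit flesh or ripeness, so tissue and stage were not checked against markers. In whole flesh, fewer cells of a type and less RNA per cell cannot be told apart.

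Ripening of ‘RB1’ went with large changes in both directions. Of 26265 gene sums that passed the low-count filter, among 75259, 5067 (19.3%) were called in edgeR's quasi-likelihood test, that is, they had an adjusted p under 0.05 and a log2 fold change (log2FC, ripe relative to unripe) beyond 1.5 either way. Of these, 2691 (10.2%) were higher and 2376 (9.05%) lower in ripe replicates 1 and 2. Among the 26265 tested, 566 called genes rose and 231 fell by more than 4 on the log2 scale. The median absolute log2 fold change of the called genes was 2.27. In the values that follow, the number after ± is the standard error of the log2FC. Levels of the 2 ripe and the 3 unripe fruits did not overlap in 17631 of the tested genes (67.1%). Over all tested genes the median log2FC was -0.08 with TMM scaling, and higher genes made up 53.1% of the calls. When scaled by library size alone these were 0.14 and 65.1%. With ripe replicate 3 kept, only 296 of 24979 genes (1.18%) passed, 93 higher (0.372%) and 203 lower (0.813%), and 292 of them were also called in the same direction without it.

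**Figure D1:**
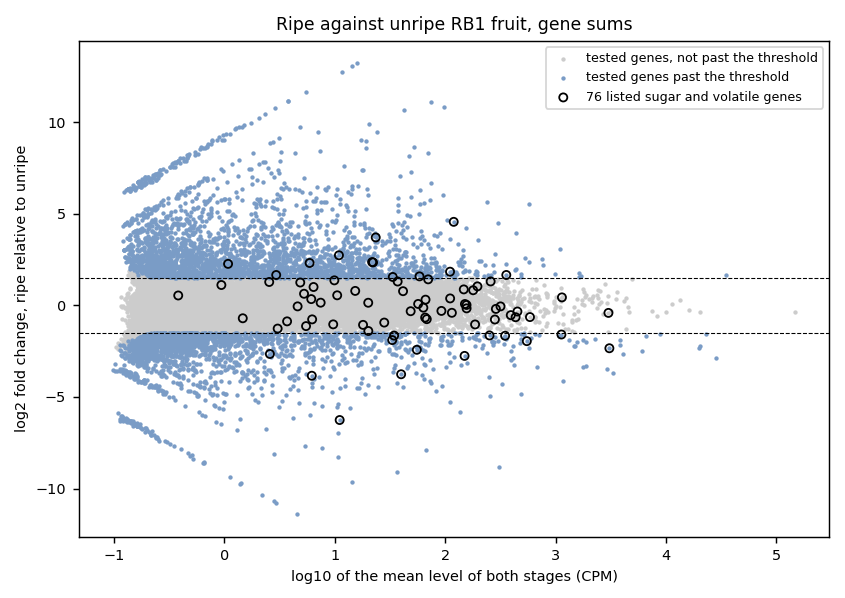
Log2 fold change of each tested gene sum in ‘RB1’ (ripe replicates 1 and 2 relative to the 3 unripe libraries) against the log10 of its mean level in CPM, with the genes past the threshold in blue and the 76 listed sugar and volatile genes ringed. Dashed lines mark the fold threshold of 1.5. The listed genes lie between -6.26 and 4.55 and on both sides of 0.

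The study's list of sugar and volatile transcripts covers 77 Trinity genes, and 76 of them were tested. Palmitoyl-protein thioesterase 1-like (TRINITY_DN7518_c0_g1), which removes fatty acids from proteins, had almost no counts in ‘RB1’ and was not. Of the 76, 12 were higher and 13 lower in ripe fruit, or 32.9% against the 19.3% of all tested genes. By library size alone 16 were higher and 9 lower, and alpha-amylase 3 (-1.43), cpPFP (-1.43), the stearoyl-ACP desaturase (-1.37) and the diphosphate synthase of the MEP pathway (-1.44) were short of the fold threshold. The list was chosen by the study on a comparison of ‘1B’ with ripe ‘RB1’ replicates 1 and 2, so it shares the ripe libraries, and its count is not independent evidence of a change with ripening. A further 40 listed genes had an adjusted p under 0.05 with a smaller fold, 19 with positive and 21 with negative values. The median over the 76 was -0.06, close to the -0.08 of all tested genes. Over 6 libraries, 3 of the 25 stayed past the threshold. These were beta-glucosidase 31-like and aldehyde dehydrogenase 3H1, both lower in ripe fruit, and farnesyl pyrophosphate synthase 1, which was higher. Each name is that of a listed transcript, and the value is that of the sum of its Trinity gene. In 9 of the 31 genes named here, 7 of them called, the listed transcripts held less than 10% of the sum in every ‘RB1’ library. These were isoamylase 3, cpPFP, plastidial pyruvate kinase 2, the desaturase, the thiolase, farnesyl pyrophosphate synthase 1, the diphosphate synthase, sucrose synthase 3-like and the terpene synthase gene.

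**Figure D2:**
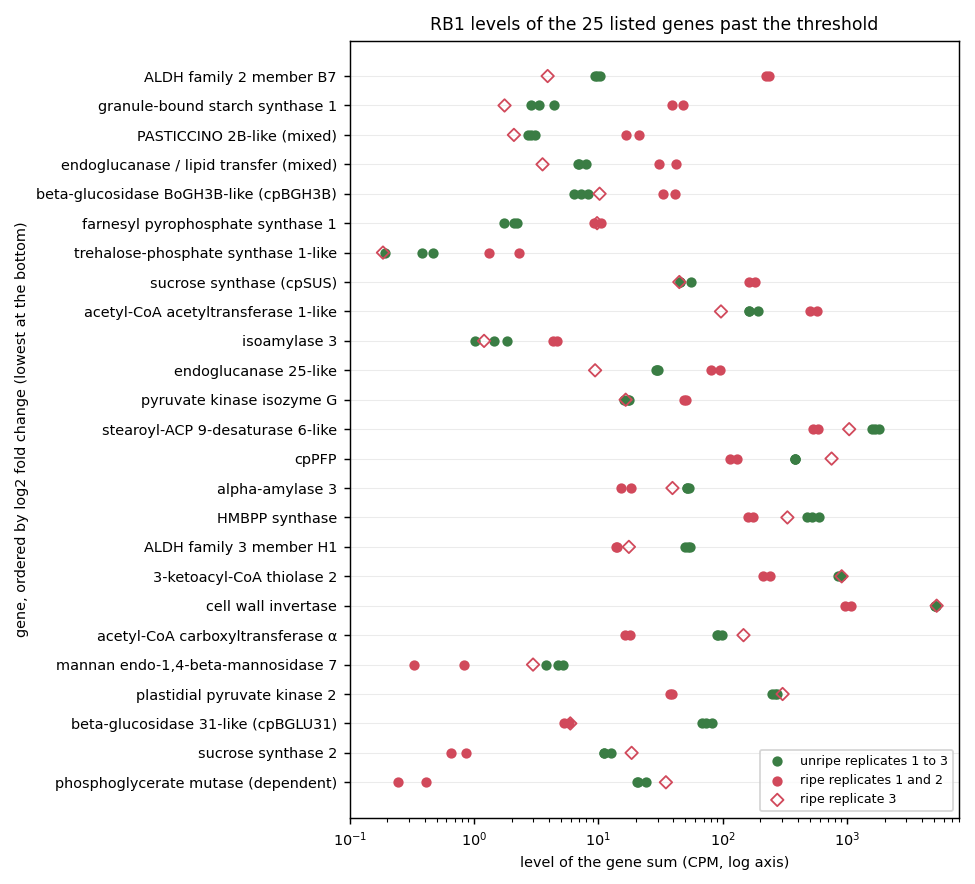
Levels in CPM (log axis) of the 25 listed genes past the threshold, ordered by log2 fold change, in the 3 unripe ‘RB1’ libraries (green), in ripe replicates 1 and 2 (filled red) and in ripe replicate 3 (open diamond). The filled red and the green points do not overlap in any of the 25 genes, which were chosen on the change in these same libraries. Among all tested genes the 2 groups do not overlap in 67.1%. The open diamond is near the red points in beta-glucosidase 31-like, aldehyde dehydrogenase 3H1 and farnesyl pyrophosphate synthase 1.

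The sucrose-cleaving enzymes changed unevenly, with 1 of 6 genes higher and 2 lower in ripe fruit (50%, against 19.3% of all tested genes). Sucrose synthase splits sucrose reversibly into fructose and UDP-glucose. cpSUS (TRINITY_DN775_c0_g3) stood at 182 and 164 CPM in ripe replicates 1 and 2 and at 45.1, 45.0 and 55.2 CPM in the unripe fruits (log2FC 1.83 ± 0.10, adjusted p = 1.74e-13). Sucrose synthase 2 (TRINITY_DN775_c0_g1) went the other way, with 0.855 and 0.657 CPM against 11.1, 11.01 and 12.7 CPM (log2FC -3.84 ± 0.19, adjusted p = 8.20e-15). Both differences were far larger than the spread among the unripe fruits and between ripe replicates 1 and 2. They were not larger than the spread of the ripe fruits once replicate 3 is counted. Ripe replicate 3 had 44.7 CPM of cpSUS, just under the lowest unripe fruit, and 18.5 CPM of sucrose synthase 2, above every unripe fruit, and with it neither passed (adjusted p = 0.149 and 0.695). Sucrose synthase 3-like (TRINITY_DN775_c0_g2) was not called, at 74.97 and 71.8 CPM against 55.3, 59.1 and 63.5 CPM, with 136 CPM in ripe replicate 3, the highest of the 6 fruits (log2FC 0.31, adjusted p = 0.00948). Nor was sucrose synthase 5 (TRINITY_DN2092_c0_g1), at 6.49 and 7.23 CPM against 2.70 to 2.97 CPM and 3.03 CPM in replicate 3 (log2FC 1.24, adjusted p = 1.95e-07). The first 3 of these sucrose synthases share a Trinity cluster, and how reads that match several of them were divided can move counts between them.

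Invertases hydrolyse sucrose to glucose and fructose. The cell wall invertase gene (TRINITY_DN1273_c2_g1), which acts on sucrose outside the cell, fell with ripening from 5227, 5081 and 5068 CPM to 1065 and 953 CPM (log2FC -2.34 ± 0.15, adjusted p = 9.30e-13). On the deposited scale per transcript length (TMM-scaled TPM) it was at 1958 to 2094 in unripe fruit and at 356 and 363 in ripe replicates 1 and 2. Ripe replicate 3 had 5249.7 CPM, above every unripe fruit, and with it the change did not pass (adjusted p = 0.359). The vacuolar invertase gene (TRINITY_DN3457_c0_g1), whose enzyme sets the balance of stored sucrose and hexoses, had 10.8 and 12.6 CPM in ripe and 28.1, 22.7 and 22.2 CPM in unripe fruit, short of the fold threshold (log2FC -1.07 ± 0.13, adjusted p = 1.05e-07). Here ripe replicate 3, at 9.12 CPM, was on the side of the other ripe fruits (log2FC -1.15 and adjusted p = 0.0400 with 6 libraries).

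Among 5 genes of starch synthesis, granule-bound starch synthase 1 (TRINITY_DN5853_c0_g2) was past the threshold, a share of 20% against the 19.3% of all tested genes. The enzyme makes amylose, the unbranched part of starch. Its gene rose with ripening, to 48.0 and 38.9 CPM from 4.37, 3.30 and 2.86 CPM (log2FC 3.70 ± 0.14, adjusted p = 3.85e-17), which is 13.0-fold by the fitted log2FC. It was at 1.76 CPM in ripe replicate 3, below the unripe fruits. The other 4 genes of this group had log2 fold changes of -0.13 to 1.30. Among 5 genes of starch breakdown, 1 was lower and 1 higher (40%, against the same 19.3%). Alpha-amylase 3 (TRINITY_DN5126_c0_g1), a plastidial amylase in Arabidopsis, fell to 15.3 and 18.3 CPM from 51.5, 53.4 and 51.3 CPM (log2FC -1.65 ± 0.11, adjusted p = 3.58e-12), with 39.4 CPM in replicate 3. Isoamylase 3 (TRINITY_DN5599_c0_g1), which debranches glucan during starch breakdown in Arabidopsis leaves, rose to 4.64 and 4.27 CPM from 1.46, 1.02 and 1.83 CPM (log2FC 1.65 ± 0.22, adjusted p = 5.66e-07), with 1.20 CPM in replicate 3. It did not pass without unripe replicate 2 (log2FC 1.36), with at least 1 CPM in 2 libraries (1.46) or after thinning to the smallest library (1.18). Nor did isoamylase 3 pass in limma with a pseudocount of 1 (1.01) or in glmTreat (adjusted p = 0.625). Over 6 libraries the 3 genes had adjusted p = 0.139, 0.127 and 0.231.

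Trehalose 6-phosphate is a signal of sucrose supply in plants, made by trehalose-phosphate synthase and removed by trehalose-phosphate phosphatase. Trehalose-phosphate synthase 1-like (TRINITY_DN4138_c2_g1) rose from a low level, with 1.32 and 2.30 CPM in ripe and 0.378, 0.471 and 0.193 CPM in unripe fruit (log2FC 2.26 ± 0.37, adjusted p = 1.46e-05). It rested on 93 counts in ripe and 42 in unripe fruit, and ripe replicate 3 had 0.185 CPM (adjusted p = 0.273 with 6 libraries). In limma the value was short of the fold threshold, at 0.39 with a pseudocount of 1 and 1.43 with 0.1. The gene did not pass in glmTreat (adjusted p = 0.0730). The other 2 genes of the group, both phosphatases, had positive values of 1.11 and 1.42, under the fold threshold. The share called was 33.3% of 3 genes, against 19.3% of all tested genes.

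Glycosidases and cell wall enzymes had 3 of 9 genes higher and 2 lower (55.6%, against 19.3% of all tested genes). Beta-glucosidases free glucose, and the volatile or bitter compound attached to it, from glycosides. cpBGLU31 (beta-glucosidase 31-like, TRINITY_DN3009_c0_g1) fell from 67.5, 73.5 and 81.6 CPM in unripe to 5.33 and 5.75 CPM in ripe fruit (log2FC -3.76 ± 0.13, adjusted p = 9.18e-18). Ripe replicate 3 stood with the other ripe fruits here, at 5.94 CPM, and the gene passed with all 6 libraries (log2FC -3.70, adjusted p = 0.00119). cpBGH3B (beta-glucosidase BoGH3B-like, TRINITY_DN3108_c0_g1) rose to 41.04 and 33.2 CPM from 6.37, 8.28 and 7.22 CPM (log2FC 2.34 ± 0.12, adjusted p = 2.45e-14). Replicate 3 had 10.2 CPM of it, between the stages and nearer the unripe fruits (adjusted p = 0.0917 with 6 libraries). cpBGLU42 (beta-glucosidase 42-like, TRINITY_DN1938_c0_g1) missed the fold threshold, at 10.6 and 11.5 CPM against 32.5, 30.7 and 24.4 CPM, with 27.2 CPM in replicate 3 (log2FC -1.40 ± 0.13, adjusted p = 1.42e-09), and passed it without unripe replicate 3 (log2FC -1.63). The fourth beta-glucosidase of the list, beta-glucosidase 41 (TRINITY_DN150_c2_g1), added after its values were seen, was not called, at 313 and 307 CPM in ripe and 292, 321 and 356 CPM in unripe fruit, with 236 CPM in replicate 3 (log2FC -0.06 ± 0.11, adjusted p = 0.666). Of the 4, 1 rose, 1 fell and 2 were not called.

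Of the cell wall enzymes, endoglucanase 25-like (TRINITY_DN2388_c0_g1), of a family that trims cellulose, rose to 94.3 and 80.9 CPM from 29.0, 29.9 and 29.4 CPM (log2FC 1.58 ± 0.10, adjusted p = 6.89e-13). Ripe replicate 3, at 9.40 CPM, was lower than every other ‘RB1’ fruit, by 1.62 on the log2 scale from the next. The rise was short of the fold threshold without ripe replicate 1 (1.43) or unripe replicate 3 (1.48). It was also short with at least 1 CPM in 2 libraries (1.39), after thinning to the smallest library (1.40) and in limma (1.35 and 1.43). In glmTreat it did not pass (adjusted p = 0.559). TRINITY_DN4424_c0_g1, which the list names both an endoglucanase and a glycolipid transfer protein, rose to 41.97 and 30.6 CPM from 7.99, 6.79 and 7.04 CPM (log2FC 2.36 ± 0.12, adjusted p = 4.15e-14), with 3.55 CPM in replicate 3. Mannan endo-1,4-beta-mannosidase 7 (TRINITY_DN4654_c1_g1), which cuts wall mannans, fell to 0.835 and 0.329 CPM from 5.24, 4.73 and 3.78 CPM (log2FC -2.66 ± 0.26, adjusted p = 3.46e-09), with 2.98 CPM in replicate 3. Its ripe level rests on 45 counts, and the value was -3.79 without ripe replicate 1 and -2.36 without ripe replicate 2. With 6 libraries the adjusted p of these genes was 0.398, 0.210 and 0.187.

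Glycolysis and pyruvate metabolism had 1 of 17 genes higher and 3 lower in ripe fruit, with a median log2 fold change of -0.65. The share called, 23.5%, was near the 19.3% of all tested genes. The largest fall of the list was that of a 2,3-bisphosphoglycerate-dependent phosphoglycerate mutase (TRINITY_DN2089_c0_g2), which interconverts phosphoglycerates, from 24.1, 20.9 and 20.4 CPM to 0.244 and 0.411 CPM (log2FC -6.26 ± 0.22, adjusted p = 9.22e-18). The ripe levels rest on 17 counts. In ripe replicate 3 the gene was at 34.9 CPM, higher than in any unripe fruit. cpPFP (TRINITY_DN2802_c0_g1), the beta subunit of the pyrophosphate-dependent phosphofructokinase, whose reversible step works towards glycolysis or gluconeogenesis, fell to 129.9 and 114 CPM from 380.4, 384 and 381 CPM (log2FC -1.65 ± 0.11, adjusted p = 4.40e-12). Replicate 3 had 750.1 CPM, far above both groups, and the listed transcript had no count in any ‘RB1’ library, so that the sum is that of other isoforms. Without ripe replicate 2 the fall did not reach the fold threshold (log2FC -1.49).

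The pyruvate kinases, which form pyruvate and ATP at the end of glycolysis, moved in both directions. Plastidial pyruvate kinase 2 (TRINITY_DN1288_c0_g1), which supplies fatty acid synthesis in Arabidopsis seeds, fell from 249, 264 and 271 CPM to 39.3 and 37.5 CPM (log2FC -2.76 ± 0.11, adjusted p = 2.17e-16). Pyruvate kinase isozyme G (TRINITY_DN6161_c0_g1) rose to 50.7 and 49.2 CPM from 16.2, 17.4 and 17.6 CPM (log2FC 1.55 ± 0.10, adjusted p = 1.55e-12). It lay just past the fold threshold and was short of it without ripe replicate 1 (1.49), unripe replicate 1 (1.48) or unripe replicate 3 (1.47). Isozyme G was also short with at least 1 CPM in 2 libraries (1.36), after thinning to the smallest library (1.38) and in limma (1.32 and 1.46). In glmTreat it did not pass (adjusted p = 0.829). Ripe replicate 3 had 303 and 16.6 CPM of the pair, at or above the unripe level of the former and within the unripe range of the latter. With it, the 4 genes of this group had adjusted p = 0.150 to 0.872. Of the 13 genes not called, 12 had an adjusted p under 0.05, 5 with positive and 7 with negative values between -1.27 and 1.30.

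Aldehyde dehydrogenases oxidise aldehydes, among them fatty aldehydes and acetaldehyde, to acids, and the 7 genes of fermentation and aldehyde metabolism held the largest rise of the list. Aldehyde dehydrogenase family 2 member B7 (TRINITY_DN1920_c0_g1), a mitochondrial form, rose from 10.3, 9.43 and 9.67 CPM to 237 and 221 CPM (log2FC 4.55 ± 0.10, adjusted p = 3.99e-21), 23.5-fold by the fitted log2FC. Ripe replicate 3 had 3.90 CPM, below all unripe fruits, and with it the gene did not pass (log2FC 4.01, adjusted p = 0.125). Aldehyde dehydrogenase family 3 member H1 (TRINITY_DN2110_c2_g1) fell to 14.2 and 13.7 CPM from 54.4, 52.6 and 49.9 CPM (log2FC -1.90 ± 0.11, adjusted p = 1.78e-13), and replicate 3, at 17.6 CPM, was close to the other ripe fruits (adjusted p = 0.00688 with 6 libraries). The 5 other genes of the group were not called, at values of -0.88 to 1.27. The share called was 28.6%, against 19.3% of all tested genes.

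Fatty acid genes had 1 of 11 tested members higher and 3 lower (36.4%, against 19.3% of all tested genes), with a median log2 fold change of -0.76. Both carboxyltransferase and desaturase act in the plastid. Acetyl-CoA carboxyltransferase alpha (TRINITY_DN578_c0_g1), a subunit of the enzyme that commits carbon to fatty acids, fell from 98.8, 92.2 and 89.5 CPM to 18.0 and 16.4 CPM (log2FC -2.43 ± 0.11, adjusted p = 1.56e-15), with 147 CPM in ripe replicate 3. Stearoyl-ACP 9-desaturase 6-like (TRINITY_DN638_c1_g1), which sets the double bond of oleate, fell from 1818, 1686 and 1581 CPM to 585 and 537 CPM (log2FC -1.59 ± 0.13, adjusted p = 1.29e-10), with 1039 CPM in replicate 3, and did not pass without ripe replicate 2 (-1.47). 3-Ketoacyl-CoA thiolase 2 (TRINITY_DN1817_c0_g1), the last enzyme of peroxisomal beta-oxidation, fell from 839, 889 and 889 CPM to 239 and 211 CPM (log2FC -1.96 ± 0.12, adjusted p = 8.91e-13), with 904 CPM in replicate 3. Genes of synthesis and of oxidation of fatty acids were thus among those that fell. The gene that rose, TRINITY_DN7525_c0_g1, is listed as the dehydratase PASTICCINO 2B-like of very-long-chain fatty acid elongation, but another of its isoforms as a GDP dissociation inhibitor. It had 21.1 and 16.8 CPM in ripe and 2.86, 3.11 and 2.70 CPM in unripe fruit (log2FC 2.73 ± 0.13, adjusted p = 7.76e-15), with 2.09 CPM in replicate 3. None of these 4 genes passed with 6 libraries (adjusted p = 0.0808 to 0.659).

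Isoprenoids, from which carotenoids and terpenoid volatiles are made, come from the mevalonate pathway of the cytosol and the MEP pathway of the plastid. Of 11 genes, 2 rose and 1 fell, a share of 27.3% against the 19.3% of all tested genes. Acetyl-CoA acetyltransferase 1-like (TRINITY_DN1293_c0_g1), at the start of the mevalonate pathway, rose to 507 and 578 CPM from 191, 164 and 162 CPM (log2FC 1.65 ± 0.11, adjusted p = 3.39e-12), while ripe replicate 3, at 96.7 CPM, was below both groups. The rise lay close to the fold threshold, and did not pass with a filter of at least 1 CPM in 2 libraries (1.48), in limma (1.48 and 1.49) or in glmTreat (adjusted p = 0.238). Farnesyl pyrophosphate synthase 1 (TRINITY_DN970_c0_g1), whose product is the precursor of sesquiterpenes and sterols, rose to 10.4 and 9.20 CPM from 2.106, 1.75 and 2.20 CPM (log2FC 2.31 ± 0.15, adjusted p = 3.13e-12). Replicate 3 had 9.75 CPM, between the other ripe fruits (adjusted p = 0.00697 with 6 libraries). The MEP pathway gene 4-hydroxy-3-methylbut-2-enyl diphosphate synthase (TRINITY_DN1264_c0_g1) fell from 594, 522 and 474 CPM to 159.8 and 175 CPM (log2FC -1.66 ± 0.12, adjusted p = 2.18e-11), with 331 CPM in replicate 3. With it, the acetyltransferase and the diphosphate synthase had adjusted p = 0.271 and 0.0829.

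Neither aroma gene was called. cpGES and cpLIS, listed as geranyllinalool synthase-like and S-linalool synthase-like terpene synthases, fall under 1 Trinity gene (TRINITY_DN2620_c0_g1), but hold little of its counts. The listed cpGES transcript (i44) had no count in any ‘RB1’ library. That of cpLIS (i57) had 8.43 and 8.22 CPM in ripe replicates 1 and 2 and 6.70, 8.03 and 8.70 CPM in unripe fruit (log2FC 0.10, adjusted p = 0.872), with 19.2 CPM in replicate 3. Isoform i48, which the list does not name, held 58.7% to 81.8% of the sum. The terpene synthase gene sum had 263 and 273 CPM in ripe replicates 1 and 2 and 292, 312 and 318 CPM in unripe fruit (log2FC -0.20 ± 0.10, adjusted p = 0.115). Ripe replicate 3 had 1147 CPM, higher than every other ‘RB1’ fruit by 1.85 on the log2 scale and 939 CPM of it from i48, and the fitted value with 6 libraries was 0.86 (adjusted p = 0.397). Its sign also turned by library size only (0.03). cpBAO (TRINITY_DN4842_c0_g1), a benzyl alcohol O-benzoyltransferase-like gene whose enzyme family makes benzyl benzoate, had 2867 and 2287 CPM in ripe and 3389, 3430.1 and 3491 CPM in unripe fruit (log2FC -0.42 ± 0.14, adjusted p = 0.0141), with 3764 CPM in replicate 3. On the scale per transcript length it was at 819 and 745 in ripe replicates 1 and 2, the highest of the listed genes there, and at 1129 to 1136 in unripe fruit, where cell wall invertase was higher.

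Isoforms under 1 gene could move more than their sum, as examples chosen after their values were seen show. The stearoyl-ACP desaturase isoform TRINITY_DN638_c1_g1_i11 had 1346, 1196 and 1035 CPM in unripe fruit, no count in ripe replicates 1 and 2 (adjusted p = 0.00324), and 773 CPM in replicate 3. Isoform i5 of the same gene was not called, at 525 and 486 CPM in ripe and 381, 419 and 467 CPM in unripe fruit. cpBAO was not called as a sum, but its isoform TRINITY_DN4842_c0_g1_i3 rose to 635 and 514 CPM from 11.6, 12.8 and 14.3 CPM (log2FC 5.49 ± 0.18, adjusted p = 0.00324), and stood at 4.66 CPM in replicate 3. Isoform i2 of granule-bound starch synthase (TRINITY_DN5853_c0_g2_i2) carried that gene's rise, with 46.4 and 37.7 CPM against 0.918, 1.15 and 0.810 CPM (log2FC 5.46 ± 0.24, adjusted p = 0.00350). The mutase isoform TRINITY_DN2089_c0_g2_i6 had 20.4, 18.5 and 19.4 CPM in unripe fruit, no count in ripe replicates 1 and 2, and 26.0 CPM in replicate 3. Salmon divides reads between isoforms by estimate, so a level of 0 for an isoform is less certain than that of its gene.

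**Figure D3:**
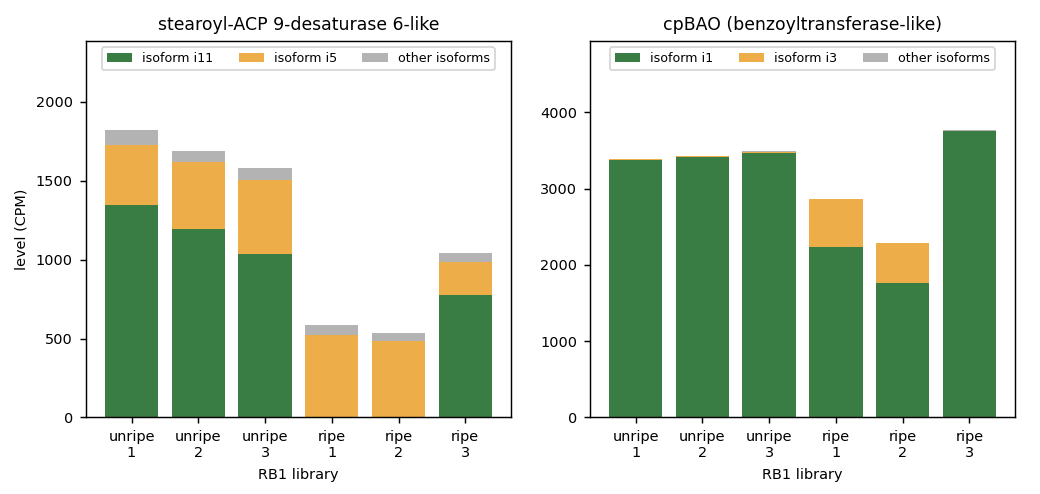
Levels in CPM of the isoforms of the desaturase gene (left) and of cpBAO (right) in the 6 ‘RB1’ libraries, stacked to the gene sum. Isoform i11 of the desaturase is missing in ripe replicates 1 and 2 and at 773 CPM in replicate 3, and isoform i3 of cpBAO reaches 635 and 514 CPM in ripe replicates 1 and 2.

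Over all genes, 3389 of 70809 tested transcripts (4.79%) passed the same threshold, 1682 higher (2.38%) and 1707 lower (2.41%) in ripe fruit. In 141 genes transcripts were called in both directions, and 27 of those genes were called as sums. Of the 5067 genes called as sums, 1473 had a called transcript in the same direction. Of the more numerous other genes among the 26265 tested as sums, 1153 held a called transcript, which is a smaller share. Among 10216 genes with several isoforms and at least 1 CPM at both stages, 1953 (19.1%) had another isoform as their most abundant one in ripe fruit. How often the main isoform differs between fruits of 1 stage was not counted, so this share cannot be read as a change with ripening. With a minimum of 5 CPM in every library of 1 stage and none in the other, a criterion set once the values were known, 114 of 180368 transcripts occurred only in ripe replicates 1 and 2 and 80 only in unripe ‘RB1’ fruit. The criterion covers 2 ripe but 3 unripe libraries, so these 2 counts are not alike. The gene sum was not called for 64.0% and 66.2% of them. Of all tested gene sums 19.3% were called, so these transcripts lay in called genes more often than that. Of the 114, 21 had at least 10 counts in ripe replicate 3, and of the 80, 72 had. Over all 6 ‘RB1’ libraries, 0 of 62803 transcripts passed in edgeR, although 5199 had an unadjusted p under 0.05.

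Ripe replicate 3 was set on a scale for each of the 5067 called genes, on which 0 is the mean of the unripe fruits and 1 that of ripe replicates 1 and 2 in log2 CPM. Its median place was 0.0696 (quartiles -0.134 and 0.317). It lay on the ripe side of the midpoint in 725 genes (14.3%) and beyond the unripe mean, away from the ripe fruits, in 2131 (42.1%). The median was 0.00752 over the genes higher in ripe fruit and 0.143 over those lower. Of the 25 listed genes, 3 lay on the ripe side of the midpoint and 17 beyond the unripe mean. Of the 44 genes with no count in unripe fruit and at least 10 counts in ripe replicates 1 and 2, none had 10 counts in replicate 3 (0 of 44). Of the 23 genes with the reverse pattern, 14 had. In 64 genes (0.244%), the terpene synthase gene sum TRINITY_DN2620_c0_g1 among them, replicate 3 was more than 1.5 on the log2 scale above all other ‘RB1’ fruits, and in 171 (0.651%), endoglucanase 25-like among them, it was that far below. Ripe replicate 2, the shallowest library, was that far outside the other 5 fruits in more genes, 972 (3.70%) against the 235 (0.895%) of replicate 3. Whether the fruit was less ripe or its library was labelled wrongly was not tested.

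**Figure D4:**
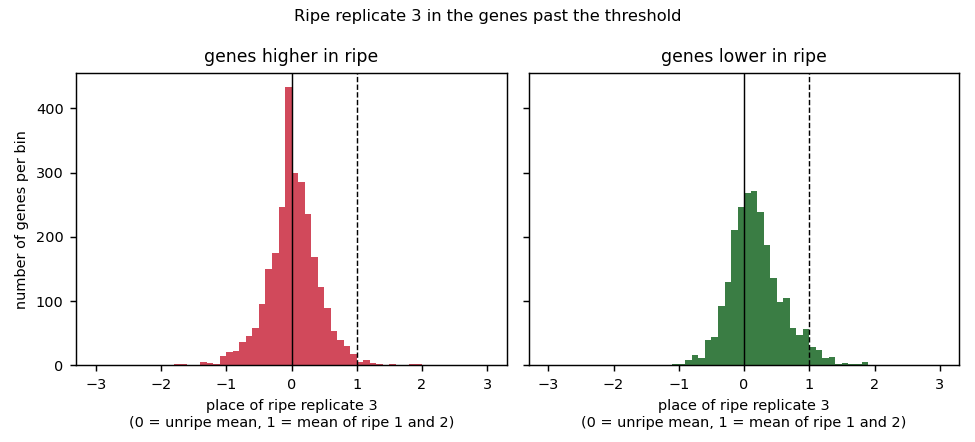
Number of called genes by the place of ripe replicate 3 between the unripe mean (0, solid line) and the mean of ripe replicates 1 and 2 (1, dashed line), for genes higher (left) and lower (right) in ripe fruit. The peak is near 0 in both, with medians of 0.00752 and 0.143.

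Ripening of ‘RB1’ and of ‘1B’ differed in many of these genes. The 3 ripe ‘1B’ fruits were set against the 3 unripe ones in the same test, where 7492 of 28998 genes (25.8%) passed. Of the 5067 ‘RB1’ calls, 963 were also called in ‘1B’ in the same direction (19.0% of the ‘RB1’ and 12.9% of the ‘1B’ calls) and 633 in the opposite one (12.5% and 8.45%). A further 1049 of the ‘RB1’ calls were not tested in ‘1B’, where they did not pass the low-count filter. The change in ‘RB1’ differed from that in ‘1B’ for 3195 of the ‘RB1’ calls (63.1%), by the stage by variety term of a fit of 11 libraries, in which 12144 of 36566 genes (33.2%) passed, 4766 (13%) with the greater and 7378 (20.2%) with the smaller log2FC in ‘RB1’. Across the 23838 genes tested in both, the log2 fold changes had a Pearson r of 0.0999, given as a description, since genes are not independent replicates. In a fit of all 12 libraries, 7257 genes (22.1%) had a different change. By the sample quality report of the study, the unripe ‘1B’ samples had higher RNA quality scores than the other groups, and the part of RNA quality in these differences was not tested.

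Of the 25 listed genes called in ‘RB1’, 8 were called in ‘1B’ in the opposite direction and 7 in the same one, and for 16 (of 25, beside 63.1% of all ‘RB1’ calls) the difference itself passed. Sucrose synthase 2 (TRINITY_DN775_c0_g1) fell by 3.84 in ‘RB1’ and had a log2 fold change of 5.62 in ‘1B’ (difference -9.48 ± 0.37, adjusted p = 4.50e-20). cpBGLU31 (TRINITY_DN3009_c0_g1) differed likewise, at -3.76 and 3.48 (difference -7.27, adjusted p = 4.09e-16), and aldehyde dehydrogenase B7 (TRINITY_DN1920_c0_g1) in the other sense, at 4.55 and -2.21 (difference 6.72, adjusted p = 9.65e-23). Sucrose synthase 2 had only 50 counts in ripe ‘RB1’ fruit. On a scale of all 12 libraries its ‘1B’ levels were 4.80, 5.05 and 6.97 CPM in ripe and 0.0526, 0.0769 and 0.188 CPM in unripe fruit. In those unripe libraries 3 counts are 0.0530 to 0.0548 CPM, so the size of its difference is uncertain. cpBGLU31 had 0.789, 0.410 and 0.912 CPM in unripe ‘1B’ fruit. Granule-bound starch synthase 1 (TRINITY_DN5853_c0_g2) was at 3.70 and -2.19 (difference 5.85, adjusted p = 1.92e-21). Genes with the same direction in both included the thiolase (TRINITY_DN1817_c0_g1, -1.96 and -2.07, difference 0.07 ± 0.19, adjusted p = 0.778) and cpBGH3B (TRINITY_DN3108_c0_g1, 2.34 and 3.61, difference -1.31 ± 0.24, adjusted p = 2.31e-05). The difference of cpBGH3B was short of the fold threshold, but passed with ripe replicate 3 kept (-1.68, adjusted p = 0.0365) or without ‘1B’ unripe replicate 2 (-1.60). Of the genes not called in ‘RB1’, the vacuolar invertase (TRINITY_DN3457_c0_g1) fell by 6.48 in ‘1B’ and had -1.07 in ‘RB1’ (difference 5.37 ± 0.22, adjusted p = 1.86e-19), and the terpene synthase gene sum (TRINITY_DN2620_c0_g1) rose by 1.87 in ‘1B’ and had -0.20 in ‘RB1’ (difference -2.12 ± 0.23, adjusted p = 1.73e-09). With ripe replicate 3 kept the latter difference did not pass (-1.04, adjusted p = 0.216), while those of sucrose synthase 2, cpBGLU31, aldehyde dehydrogenase B7 and the starch synthase did.

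**Figure D5:**
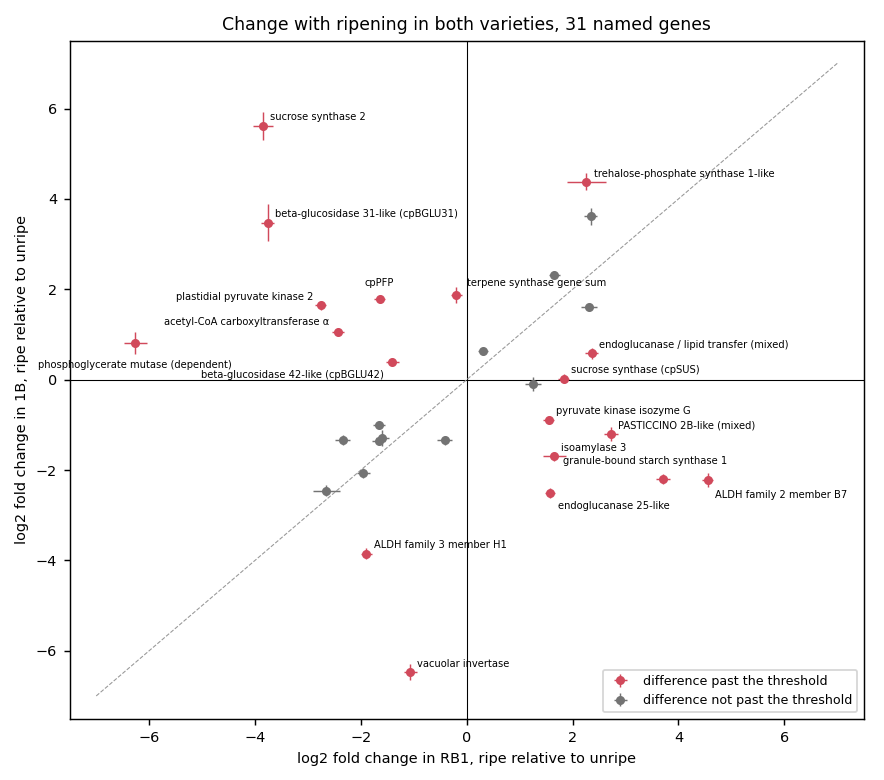
Log2 fold change of ripe relative to unripe fruit in ‘RB1’ (horizontal axis, without ripe replicate 3) and in ‘1B’ (vertical axis) for the 31 named genes, with bars of 1 standard error and a dashed line of equal change. Genes in red differ between the varieties past the threshold, among them sucrose synthase 2 at -3.84 and 5.62.

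Among genes with at least 10 CPM on average and a count at both stages, the largest changes were in genes that the list does not name. TRINITY_DN16_c1_g1 had 159.6 and 138 CPM in ripe replicates 1 and 2 and 0.0540, 0.0943 and 0.0386 CPM in unripe fruit (log2FC 11.10 ± 0.19, adjusted p = 6.76e-23), and the unripe level rests on 8 counts. TRINITY_DN44396_c0_g1 had 214 and 179 CPM against 0, 0.113 and 0.135 CPM (log2FC 10.83 ± 0.20, adjusted p = 1.10e-22), with 13 counts in unripe fruit. Both were near 0 in ripe replicate 3, at 0.0740 and 0.148 CPM. TRINITY_DN2899_c0_g1 fell from 73.6, 73.6 and 70.7 CPM to 0.163 and 0 CPM, with 88.2 CPM in replicate 3 (log2FC -9.09 ± 0.23, adjusted p = 2.35e-20), and 8 counts in the ripe fruits. TRINITY_DN1952_c0_g2 fell from 29.5, 30.0 and 26.6 CPM to 0.0204 and 0.0822 CPM, with 39.99 CPM in replicate 3 (adjusted p = 4.14e-19), and no fold is given for it because the ripe levels rest on 2 counts. In all 4 genes ripe replicate 3 was with the unripe fruits.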

How the data were processed

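RNA of papaya flesh was sequenced by the authors from 3 fruits per variety and stage. For the expected counts, the authors cleaned the reads with bbduk, Trimmomatic 0.40 and FastQC 0.11.9, built 1 assembly of both varieties in Trinity and quantified it with Salmon. The deposited signal values are TPM of the same run, scaled by TMM factors. Whether counting used strand is not given in the sources used here, so overlapping genes may be mixed.

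Isoform counts were added up per Trinity gene and rounded. The test was edgeR's quasi-likelihood test (version 4.0.16, R 4.3.3) after filterByExpr and TMM scaling, with Benjamini-Hochberg adjustment over all tested genes. A called gene was under 0.05 in adjusted p and beyond 1.5 in log2FC. The standard error is the size of the log2FC over the square root of F. Levels are CPM on the scale of the 5 libraries compared, ripe replicate 3 included by a TMM factor against the same reference. Places used log2 CPM with a prior count of 2. The steps were tested on simulated data for this comparison, on 25624 genes, with 200 genes of a mean above 1 CPM changed in both directions. Of these, 99 of 100 genes changed by 2 and 100 of 100 changed by 3 on the log2 scale were found, with 6 false calls. The simulated spread was that of the 5 libraries. The test therefore does not cover changes at lower levels, a large share of changed genes or the spread of ripe replicate 3. No pair of ‘RB1’ libraries of the same stage agreed within sampling noise, and pairs across the stages were not checked. Fruits are separate samples, so p-values measure the spread between the fruits in the fit. Ripe replicate 3 was set aside on its own values. The p-values of the 5 libraries therefore hold for ripe replicates 1 and 2 and do not count the spread that replicate 3 adds.

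Named genes are those of the study's list of 118 transcripts that passed, the genes it measured by RT-qPCR, the sucrose synthase and invertase genes, and per direction 2 others with the largest change, at least 10 CPM on average, a count at both stages and groups that did not overlap. Of 81 papaya gene identifiers of the list, 79 were found in the RefSeq gene table, used for names alone. Members and lists were chosen with earlier results of these data known. Alternatives were other filters, scalings, thresholds and depths, 1 fit of all groups, DESeq2 1.42.0, the edgeR exact test, limma 3.58.1 on log2 values of the deposited TPM with a pseudocount of 1 or 0.1, a replicate block, transcripts, and each library left out in turn. Tables were also read with Python 3.11.15. The assembled sequences and the RT-qPCR values were not used here.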

Additional observations from a re-analysis of the deposited data

Results flagged for a closer look

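In 16 of the 25 listed genes called in ‘RB1’, the change with ripening differed between ‘RB1’ and ‘1B’ by the stage by variety term of edgeR's quasi-likelihood test over 11 libraries, with adjusted p over all 36566 tested genes. The same held for 63.1% of all ‘RB1’ calls. The list was chosen on ripe ‘1B’ against ripe ‘RB1’ fruit, which is part of this term, so the count of 16 is not independent evidence of a difference. The value given for each gene is the log2 fold change in ‘RB1’ minus that in ‘1B’, and each contrast has its own unripe fruits. In genes of sugar and starch it was -9.48 for sucrose synthase 2 (TRINITY_DN775_c0_g1), 1.77 for cpSUS (TRINITY_DN775_c0_g3), which changed by 0.02 in ‘1B’, 5.85 for granule-bound starch synthase 1 (TRINITY_DN5853_c0_g2), 3.33 for isoamylase 3 (TRINITY_DN5599_c0_g1) and -2.18 for trehalose-phosphate synthase 1-like (TRINITY_DN4138_c2_g1), which rose in both varieties. In glycosidase and cell wall genes it was -7.27 for cpBGLU31 (TRINITY_DN3009_c0_g1), 4.04 for endoglucanase 25-like (TRINITY_DN2388_c0_g1) and 1.73 for TRINITY_DN4424_c0_g1. The size of the value for sucrose synthase 2 is uncertain, since its unripe ‘1B’ levels were 0.0526 to 0.188 CPM and its ripe ‘RB1’ level rests on 50 counts.

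In glycolysis and pyruvate metabolism the difference was -3.48 for cpPFP (TRINITY_DN2802_c0_g1), -7.10 for the phosphoglycerate mutase (TRINITY_DN2089_c0_g2), -4.45 for plastidial pyruvate kinase 2 (TRINITY_DN1288_c0_g1) and 2.39 for pyruvate kinase isozyme G (TRINITY_DN6161_c0_g1). It was 6.72 for aldehyde dehydrogenase B7 (TRINITY_DN1920_c0_g1) and 1.92 for aldehyde dehydrogenase 3H1 (TRINITY_DN2110_c2_g1), which fell in both varieties. Among fatty acid genes it was -3.52 for acetyl-CoA carboxyltransferase alpha (TRINITY_DN578_c0_g1) and 3.90 for TRINITY_DN7525_c0_g1. With ripe replicate 3 in the fit, 4 of the 16 differences no longer passed, at 1.40 for cpSUS (adjusted p = 0.0535), 1.22 for TRINITY_DN4424_c0_g1 (adjusted p = 0.252), -1.71 for the mutase (adjusted p = 0.3999) and -1.72 for the carboxyltransferase (adjusted p = 0.129). Without ripe replicate 1, the difference of TRINITY_DN4424_c0_g1 was 1.38 and did not pass. By library size alone 3 of the 16 did not pass, at 0.96 for cpSUS, 0.92 for TRINITY_DN4424_c0_g1 and 1.10 for aldehyde dehydrogenase 3H1. Under that scaling the difference passed for 4 further genes called in ‘RB1’, cell wall invertase (-1.86), alpha-amylase 3 (-1.504), cpBGH3B (-2.13) and acetyl-CoA acetyltransferase 1-like (-1.501).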

How the results depend on the processing

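The call of ripe against unripe fruit rested most on ripe replicate 3, which as the third ripe fruit left 296 genes past the threshold (93 higher, 203 lower) and 3 listed genes (1 higher, 2 lower). Of the 31 named genes, 22 lost their call with it. At least 1 CPM in 2 libraries left 2538 genes (1387 higher, 1151 lower), and thinning to the smallest library 2743 (1475 and 1268), both with fewer genes tested. limma on log2 deposited TPM with a pseudocount of 1 gave 1221 (728 and 493), and 1222 (730 and 492) without a filter, with 7 listed genes higher in each. With no fold threshold 13598 genes passed (7425 and 6173), and 65 listed genes (31 and 34). glmTreat gave 2315 (1597 and 718), and 16 listed genes (7 higher). As transcripts, 1682 were higher. Leaving out each library in turn gave 3799 (without ripe replicate 1) to 5312 genes (without ripe replicate 2), 1784 to 3020 of them higher and 1931 to 2500 lower, and 23 to 25 listed genes, 10 to 14 higher and 11 to 14 lower. Higher genes were fewer than lower ones without ripe replicate 1 (47.0% of the calls) and without unripe replicate 3 (49.3%). A fit without ripe replicate 1 or 2 takes the spread from the unripe fruits. The replicate number did not pair the fruits (correlations of deviations -0.0507, -0.0101 and -0.0281). A replicate block gave 4410 genes over 5 libraries, and 26 listed genes, against 26 genes (6 and 20) and 1 listed gene (0 and 1) over 6. Differences between the varieties passed in 7257 genes with ripe replicate 3 and in 9017 to 12170 with each library left out.

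Signs turned in few named genes, and the cause was not tested. The change of the terpene synthase gene sum in ‘RB1’ (TRINITY_DN2620_c0_g1) was 0.86 with ripe replicate 3, 0.0273 by library size only and 0.49 with the replicate block over 6 libraries. The difference between the varieties turned with ripe replicate 3 for sucrose synthase 3-like (TRINITY_DN775_c0_g2, 0.0161), cell wall invertase (TRINITY_DN1273_c2_g1, 0.21), mannosidase 7 (TRINITY_DN4654_c1_g1, 0.86), the desaturase (TRINITY_DN638_c1_g1, 0.0251) and the diphosphate synthase (TRINITY_DN1264_c0_g1, 0.0755). It turned for the thiolase (TRINITY_DN1817_c0_g1) without a filter (-0.0172) and by library size only (-0.73), and for farnesyl pyrophosphate synthase 1 (TRINITY_DN970_c0_g1, -0.15) by library size only. Leaving out 1 library gave -0.10 to 0.23 for the thiolase and -1.42 to 0.0562 for mannosidase 7. The depth of ripe replicate 2 limits genes below 0.274 CPM.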
